A study of Mus musculus with 2 samples.

Results

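The Ccl5-positive CD8 T cells described here were 97 of the 36612 barcodes deposited from mouse blood, 30 in the wild-type (wt) library and 67 in the db/db library. The members were chosen by their measured transcripts. A barcode belonged to them when it had 200 to 6000 genes, under 10% mitochondrial and under 20% haemoglobin transcripts, at least 1 UMI (unique molecular identifier, which tags a captured transcript) of Cd3d, Cd3e or Cd3g, no UMI of Cd79a, Cd79b or Cd4, at least 1 UMI of Cd8a or Cd8b1, and at least 1 UMI of Ccl5. The blood came from wt and db/db male mice of strain C57BLKs/J aged 21 weeks, with 3 mice per genotype. The db/db mice are mutant for the leptin receptor gene Lepr in every cell and become obese and diabetic. Each genotype gave 1 droplet library (10x Genomics, 3′ chemistry) from 200 µl of blood after lysis of red cells, and nothing in the files maps a cell to a mouse. With 1 library per genotype, genotypes could not be tested against each other. Intervals are given at 95% and cover counting error only, not the differences between animals, preparations or libraries. The libraries, the handling of each pool and the genotype cannot be told apart.

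CD8 T cells recognise peptides on MHC class I and kill infected or altered cells. After a response, or after expansion driven by cytokines such as interleukin-15, some persist as memory cells, which keep transcripts for the chemokine CCL5 ready and carry Ly6C and the interleukin-2 and interleukin-15 receptor chain CD122 (Il2rb). Effector memory and effector cells carry granzymes, killer lectin-like receptors and CX3CR1.

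The class was sampled thinly. The cells had a median of 4106 UMIs (range 1017 to 9799) in wt and 4794 (1560 to 7777) in db/db, and their UMIs summed to 133279 and 307862. A gene's level is given as CPM, its UMIs scaled to a sum of 1000000, so that 1 UMI was worth 7.50 CPM (wt) and 3.25 CPM (db/db). Median mitochondrial shares were alike (4.25% and 4.16%), whereas Gm42418, which overlaps ribosomal RNA sequence, held 1.77% of UMIs in the median wt cell and 0.403% in the median db/db cell. The libraries shared 91 barcodes. None of these was a member in both, and 1 db/db member carried a barcode also present in wt. Lepr had 0 UMIs in both libraries, which says nothing about genotype with reads from the 3′ end.

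The markers given for these cells were present. Ccl5, on chromosome 11 (83525778 to 83530518, GRCm38), chose the members, and its UMIs per cell ran from 1 to 164 with a median of 32.5 in wt, and from 1 to 142 with a median of 17.0 in db/db. In wt 4 members had 1 Ccl5 UMI, 7 had 2 to 9 and 19 had 10 or more, and in db/db these numbers were 4, 16 and 47. Ly6c2, which encodes a Ly6C surface protein of memory CD8 T cells, stood at 1193.0 CPM in members of wt and 1026.4 CPM in those of db/db, against 446 and 320.2 CPM in the CD8-gated cells with no Ccl5 UMI. Nkg7, a cytotoxic granule protein, was at 1395.6 and 812 CPM, against 431 and 433 CPM. Cd8b1, part of the gate, was alike in Ccl5-positive cells (915 and 744 CPM) and Ccl5-negative cells (899 and 835 CPM). Ctsw, a cathepsin of cytotoxic cells, differed less than Ly6c2 and Nkg7: 203 and 296 CPM with Ccl5 against 161 and 182 CPM without, and the wt ratio of 1.26 (0.789 to 1.95) spanned 1. The members just inside the Ccl5 threshold did not all carry this profile. In the 4 wt cells with 1 Ccl5 UMI Ly6c2 had 0 UMIs and Lef1, a naive T cell factor, reached 1064.2 CPM (631 to 1681.9), above its 625 CPM in the wt cells just outside, which had no Ccl5 UMI. In the 4 db/db cells with 1 Ccl5 UMI Ly6c2 was at 967 CPM, against 320.2 CPM just outside.

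Markers of other blood cells were found in many members, at low sums. Over the platelet, monocyte, neutrophil and B cell markers together (without Igkc, Cd74, S100a8 and S100a9), 9 of 30 wt and 18 of 67 db/db members held fewer than 2 UMIs. Their part in the results was not tested, and values in these cells alone, called below the members with few other-lineage UMIs, are given beside the results that they change. The monocyte markers counted include Ccr2, which is also on the chemokine and homing list. Ccr2 had 16 UMIs in 8 wt members and 9 in 8 db/db members, in wt 8.95 times (3.61 to 24.2) the Ccl5-negative level. This filter can therefore leave out members for a transcript of their own, which was not tested. Among 10 NK cell markers Klra8, Klra4 and Klri2 were at 0 in both libraries, Ncr1 had 1 UMI in wt and 2 in db/db, and Klrb1c had 3 and 4. In members the list summed to 1298.0 CPM (wt) and 552 CPM (db/db), and 141 of its 173 wt UMIs and 117 of its 170 db/db UMIs came from Gzma. Of 7 markers of helper and regulatory CD4 T cells, Cd40lg, Foxp3, Il2ra and Ctla4 were at 0 in both, Cd4 was set to 0 by the gate, and Ikzf2 held 15 of the 17 wt UMIs in 3 cells. Of 7 gamma-delta T cell markers 5 were seen in wt (9 UMIs) and 3 in db/db (7 UMIs). Of 10 monocyte markers 5 were seen in wt and 7 in db/db, and these summed to 240.1 and 296 CPM. Of 12 B cell markers 11 and 10 were seen, in 25 of 30 wt and 45 of 67 db/db members, at 488 and 276 CPM in sum. Of 9 neutrophil markers 3 were seen in each library, with 4 and 13 UMIs.

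Platelet transcripts differed between the libraries. Of 9 platelet markers 1 was seen in wt members, Pf4 with 2 UMIs, and 8 were seen in db/db members with 76 UMIs in 28 of 67 cells, Nrgn holding 36 of them. The summed level was 15.0 CPM (wt) and 247 CPM (db/db). It was also higher in the Ccl5-negative CD8 T cells of db/db, at 50.3 and 355 CPM. In 13 db/db members and no wt member 2 or more platelet UMIs were found. Their part in the results was not tested, but counts without these 13 cells are given below. Erythroid transcripts, from 9 genes, summed in members to 20911.0 CPM (wt) and 17257.7 CPM (db/db).

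A larger share of CD8 T cells carried Ccl5 in the db/db library. Of the cells that passed every other clause of the rule, 30 of 166 wt cells had Ccl5 (18.1%, Clopper-Pearson 12.5 to 24.8) and so had 67 of 156 db/db cells (42.9%, 35.1 to 51.1). The ratio was 2.38 (1.52 to 3.79). Among cells with fewer than 2 UMIs of other-lineage markers 9 of 39 and 18 of 56 had Ccl5, a ratio of 1.39 (0.594 to 3.52) whose interval includes 1. Members made up 6.41% of T cells in wt and 19.6% in db/db, whereas Ccl5-negative CD8 T cells made up 29.1% and 26.1%, a ratio of 0.898 (0.680 to 1.18). The order was the same at equal depth. With each cell thinned to 1000 UMIs, which left out 1 db/db cell, the expected shares were 15.2% and 37.1%. The share of B cells with a Ccl5 UMI, cells that should lack the gene, was 1.14% in wt and 0.626% in db/db, at medians of 2265 and 2183 UMIs. In CD4 T cells it was 2.96% and 3.45%, and all 55 wt and 41 db/db NK cells had Ccl5. As the rule used Ccl5, these shares are a description.

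**Figure D1:**
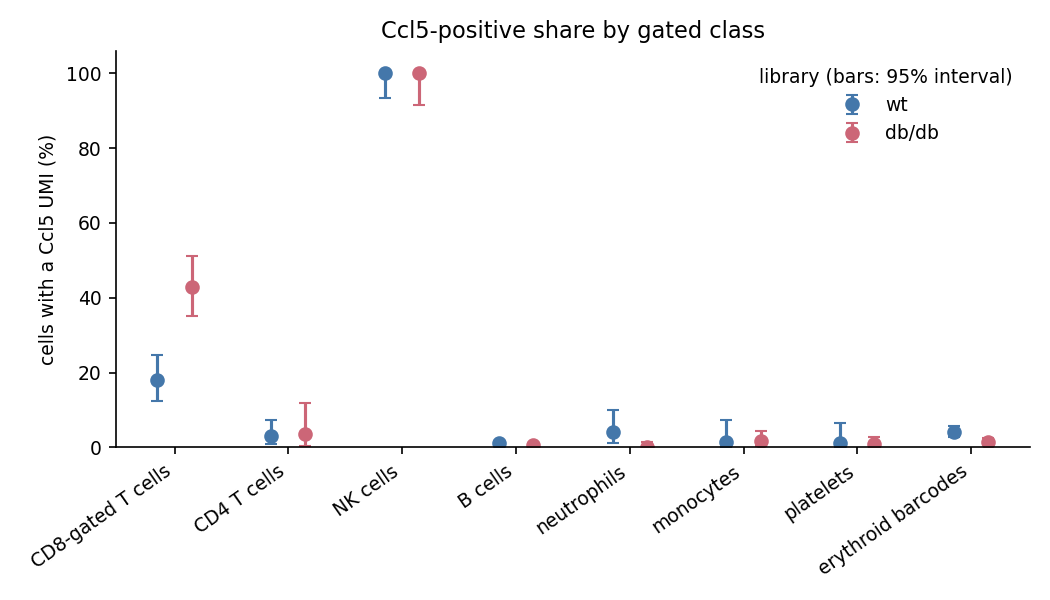
Share of cells with at least 1 Ccl5 UMI (y axis, percent) in 8 gated classes of the wt (blue) and db/db (red) libraries; bars are exact 95% intervals. CD8-gated T cells stood at 18.1% in wt and 42.9% in db/db, NK cells at 100.0% in both, and the other 6 classes at 4.11% or less.

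Within each library the CD8 T cells with Ccl5 differed from those without it in genes of the memory and effector lists. In each library 3414 genes had at least 20 UMIs over both classes. Of these 32 (0.937%) were 2-fold or more higher with Ccl5 in both libraries, and 12 (0.351%) were 2-fold or more lower. The memory CD8 list had 8 of 13 measured genes among the higher ones, with medians of 1.78 (log2) in wt and 1.42 in db/db. The terminal effector list had 8 of 12 (1.59 and 1.54), T cell transcription factors 5 of 21 (0.08 and 0.02) the cytotoxic granule list 2 of 9 (0.88 and 0.42) and the chemokine and homing list 3 of 12 (0.25 and 0.09). The naive T cell list had 0 of 18 higher and 1 lower (-0.68 and -0.45). Over all measured genes the medians were 0.07 and -0.04.

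Gzma, a granzyme protease, was seen almost wholly in the members among CD8 T cells, with 141 UMIs in 9 of 30 wt members and 117 in 10 of 67 db/db members, against 1 UMI in each library's Ccl5-negative cells. Its level was 1057.9 and 380.0 CPM in members and 13095.0 and 10043.9 CPM in NK cells. Killer lectin-like receptor genes lie in a cluster on chromosome 6 that includes Klre1, Klrd1, Klrk1, Klrc2 and Klrc1 between 129577905 and 129678973 (GRCm38). All but Klrd1 were higher with Ccl5 in both libraries. Klrd1 was 3.72 times (2.63 to 5.25) the Ccl5-negative level in wt, and its ratio of 0.841 (0.597 to 1.18) spanned 1 in db/db. Klrk1, the activating receptor NKG2D, stood at 263 CPM (wt) and 136 CPM (db/db) in members. This was 26.1 times (10.9 to 75.9) the level without Ccl5 in wt and at least 14.5-fold higher in db/db, where the Ccl5-negative cells had 0 UMIs. Klrc1 and Klrc2, near-identical NKG2 receptors whose reads can be misassigned, were at least 34.3-fold and 38.0 times (9.03 to 339) higher in wt, and at least 5.52-fold and 4.48-fold higher in db/db.

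Genes of effector cell fate and contact followed the same order. Zeb2, a transcription factor of effector cells, was at 195 and 117 CPM in members against 5.03 and 6.28 CPM, and Cx3cr1, the fractalkine receptor, at 135 and 81.2 CPM against 0 and 3.14 CPM. Ahnak, a large scaffold protein of activated T cells, was at 615 and 464 CPM against 92.2 and 87.9 CPM, ratios of 6.67 (4.68 to 9.57) and 5.28 (3.51 to 8.23). Fasl, the death receptor ligand, had 8 and 17 UMIs in members and none without Ccl5, at least 11.9-fold and 5.86-fold higher. The chemokine Ccl4 had 6 and 35 UMIs against none, but 34 of the 35 db/db UMIs lay in 1 cell. Klre1, Serpina3g and Ifitm10 completed the 12 genes that ranked highest. Among genes of the memory list Il2rb was at 405 and 325 CPM against 75.5 and 122 CPM, ratios of 5.37 (3.55 to 8.16) and 2.65 (1.82 to 3.95). Eomes, a T-box factor of memory cells, was at 120.0 and 71.5 CPM against 28.5 and 18.8 CPM, and Il18r1, an interleukin-18 receptor chain, at 225 and 201 CPM against 58.7 and 56.5 CPM.

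A few genes stood lower in Ccl5-positive cells. The naive T cell list had 1 of 18 measured genes 2-fold or more lower in both libraries, and some of its members were level, such as Il7r with ratios of 1.09 in wt and 0.932 in db/db and Klf2 with 1.09 and 0.833. Dapl1 stood at 218 CPM (wt) and 299 CPM (db/db) in members, against 748 and 593 CPM without Ccl5. Lef1 was at 308 and 273 CPM against 625 and 527 CPM, and Igfbp4, an insulin-like growth factor binding protein, at 90.0 and 68.2 CPM against 288 and 295 CPM. Ccr9, a homing receptor for the small intestine, had 1 UMI in the members of each library and 38 and 18 UMIs without Ccl5. Rflnb, Rgcc, Selenop and Slamf6 were the others. Dapl1, Lef1 and Slamf6 missed the 2-fold line in db/db.

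**Figure D2:**
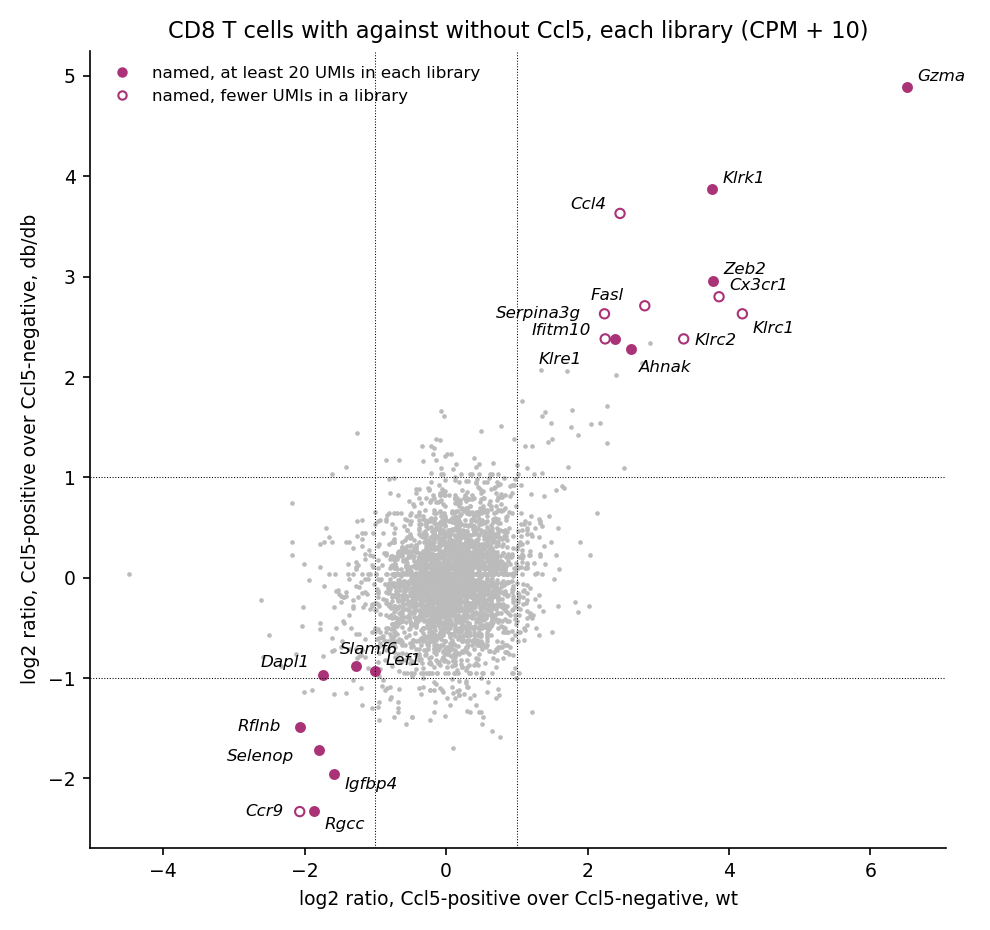
Log2 ratio of Ccl5-positive over Ccl5-negative CD8 T cells in wt (x axis) and db/db (y axis), from CPM plus 10; grey points are the 3414 genes with at least 20 UMIs in each library and dotted lines mark 2-fold. Named genes are labelled, open where a library held fewer UMIs; Gzma and Klrk1 lie far above in both libraries, Igfbp4 and Rgcc below in both.

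The members were mixed in their effector genes. A UMI of any of 6 effector genes (Gzma, Gzmb, Klrg1, Cx3cr1, S1pr5, Zeb2, chosen after their values were seen) was found in 15 of 30 wt members (interval of the share 31.3% to 68.7%) and 16 of 67 db/db members (23.9%, 14.3 to 35.9). The ratio of 0.478 (0.221 to 1.04) included 1 in its interval. As shares of all CD8-gated T cells, cells with Ccl5 and an effector UMI made up 9.04% (wt) and 10.3% (db/db), and the ratio was 1.14 (0.526 to 2.46). Cells with Ccl5 and no effector UMI were 9.04% (15 of 166) and 32.7% (51 of 156), a ratio of 3.62 (2.00 to 6.93). The larger Ccl5-positive share of db/db thus lay mostly in cells with no effector UMI.

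Cells with no effector UMI were the deeper ones, with medians of 5884 (wt) and 5051 (db/db) UMIs, against 3078 and 3555 UMIs in cells with an effector UMI. After thinning to 1000 UMIs the expected share of members with an effector UMI was 38.0% in wt and 17.8% in db/db. An effector UMI was found in 2.94% and 3.37% of Ccl5-negative CD8 T cells. B cells express Zeb2, and 26.1% (wt) and 14.7% (db/db) of them had an effector UMI, a ratio of 0.563 (0.494 to 0.641). Zeb2 stood at 177 and 84.6 CPM in B cells and at 763 and 402 CPM in NK cells. Without Zeb2 1.35% and 1.10% of B cells had an effector UMI, against 40.0% and 22.4% of members. The members' ratio was then 0.560 (0.245 to 1.31), which spans 1.

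**Figure D3:**
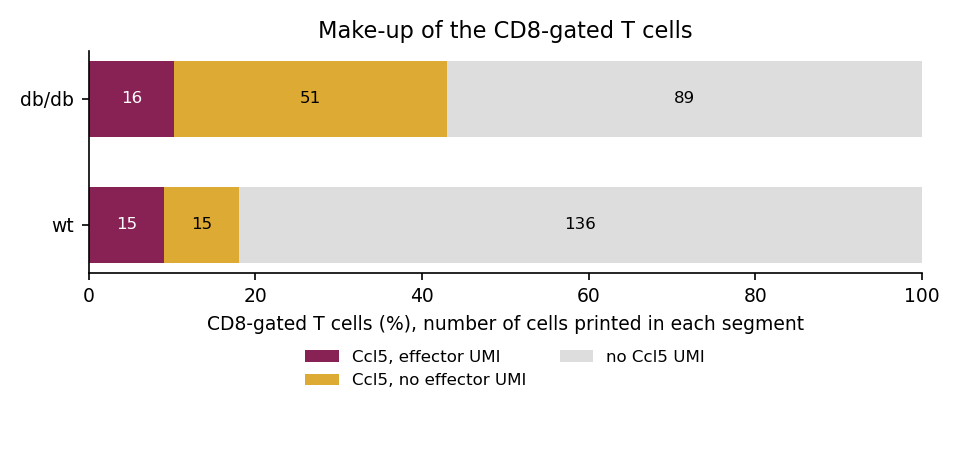
CD8-gated T cells of each library divided by Ccl5 and effector UMIs, as percent of the library's CD8-gated cells (x axis) with the number of cells in each segment. The segment with Ccl5 and an effector UMI holds 15 wt and 16 db/db cells, that with Ccl5 and no effector UMI 15 and 51.

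The division went with other genes in both libraries. Cells with an effector UMI had a median of 48.0 Ccl5 UMIs in wt and 64.5 in db/db, those with none 9 and 12. Id2, a transcription factor of effector differentiation, was at 872 and 746 CPM with an effector UMI and at 64.8 and 156 CPM without. Itga4, an integrin of migrating T cells, was at 819 and 1023.5 CPM against 129.7 and 156 CPM. The calcium-binding protein S100a4, the integrin Itgb1, Nkg7, Emp3, Ahnak and Klrk1 were likewise higher with an effector UMI in both libraries, each with intervals above 1. Il7r, the interleukin-7 receptor, was at 623 and 589.8 CPM against 947 and 1234.9 CPM, and Dapl1 at 35.6 and 34.7 CPM against 350.2 and 359.7 CPM. The subsets were made from the same cells, so this is a description of how the transcripts fall together.

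Between genotypes the members' NK receptor and effector genes were lower in db/db. Of 2722 genes with at least 20 UMIs over both sums, 87 (3.20%) were 2-fold or more higher in db/db members and 112 (4.11%) 2-fold or more lower. With at least 50 UMIs required, the counts were 10 and 17. Scaling moved the split: 43.7% of the 2-fold genes were higher by total UMIs and 70.5% (141 higher, 59 lower) with TMM factors, which moved the median of all genes from -0.09 to 0.11. Without the cells that held 2 or more platelet UMIs 49 genes were higher and 103 lower. In the Ccl5-negative CD8 T cells 1.25% and 1.84% of 4789 genes were 2-fold higher and lower.

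All 6 measured NK receptor genes were below 0, with a median log2 ratio of -1.27, and 4 of them were 2-fold or more lower. The summed level of the 22 genes was 2310.9 CPM (wt) and 1114.1 CPM (db/db), which is a ratio of 0.482 (0.412 to 0.564), whereas in Ccl5-negative cells the ratio was 1.06 (0.881 to 1.26). Klrd1, which encodes CD94, the partner chain of NKG2 receptors, had a UMI in 22 of 30 wt and 33 of 67 db/db members, at 480.2 and 211 CPM, a ratio of 0.440 (0.307 to 0.631). Klrc1 was at 173 and 52.0 CPM, Klrc2 at 128 and 42.2 CPM, and Klrk1 at 263 and 136 CPM. Slamf7, a SLAM receptor of cytotoxic cells, had 21 UMIs in 11 wt members and 11 in 10 db/db members, a ratio of 0.227 (0.0987 to 0.492). Hcst, the adaptor DAP10, was at 705 and 481 CPM, a ratio of 0.682 (0.523 to 0.892). In Ccl5-negative cells Hcst was lower to a like degree, 0.672 (0.514 to 0.871), whereas Klrd1 was higher, 1.94 (1.40 to 2.69). The list median in members was -1.08 with TMM factors, where Klrd1 was at -0.95. In the members with few other-lineage UMIs Klrd1 had a ratio of 0.415 (0.203 to 0.843), and Klrk1, on 2 and 13 UMIs, one of 3.01 (0.682 to 27.5) that spans 1.

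Of the 16 measured terminal effector genes 15 were below 0 and 5 were 2-fold or more lower, with a median of -0.68 (-0.49 with TMM factors). Over all measured genes 1550 of 2722 were below 0. The summed list had a ratio of 0.603 (0.553 to 0.658) in members and 0.884 (0.805 to 0.971) in Ccl5-negative cells. S100a6 stood at 653 CPM (wt) and 214 CPM (db/db), a ratio of 0.328 (0.235 to 0.457), and Lgals1 at 630.3 and 253 CPM, a ratio of 0.402 (0.292 to 0.554). Both were also lower in the Ccl5-negative cells of db/db, with ratios of 0.468 (0.234 to 0.872) and 0.287 (0.161 to 0.480). In the members with few other-lineage UMIs the median was -0.24. There S100a6 turned direction, with 4 and 19 UMIs and a ratio of 2.2 (0.732 to 8.90), and Lgals1 had a ratio of 0.811 (0.381 to 1.81). Both intervals span 1. Gzma had a ratio of 0.359 (0.279 to 0.462) and Gzmb, a granzyme that triggers apoptosis, 0.244 (0.0948 to 0.585) on 16 and 9 UMIs. Vim was level at 555 CPM in both, and Ahnak differed little, a ratio of 0.755 (0.572 to 1.00). In the cytotoxic granule list 8 of 11 measured genes were below 0 and 2 were 2-fold or more lower, Gzma and Gzmb, which both lists hold. Nkg7 had a ratio of 0.582 (0.479 to 0.707), whereas the proteoglycan Srgn was level (375 and 380.0 CPM) and Ctsw had a ratio of 1.46 (0.941 to 2.33) that spans 1. The cytotoxic granule median of -0.49 turned to 0.84 over 4 measured genes in the members with few other-lineage UMIs, where Nkg7 had a ratio of 1.46 (0.880 to 2.51) and Gzma one of 0.0472 (0.0166 to 0.109).

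In the memory CD8 list 14 of 17 measured genes were below 0 and 2 were 2-fold or more lower, with a median of -0.31 (-0.13 with TMM factors). In the members with few other-lineage UMIs the median turned to 0.61, with 6 of 8 measured genes above 0. Over all members the 2 lower genes were Klrd1 and Xcl1, a chemokine for dendritic cells. Ly6c2 had a ratio of 0.860 (0.709 to 1.05) and Il2rb 0.802 (0.570 to 1.14). Bcl2, a survival factor of memory cells, was at 668 and 861 CPM, a ratio of 1.29 (1.01 to 1.66), and in Ccl5-negative cells the ratio was 1.91 (1.57 to 2.31). Xcl1 had 32 wt UMIs and 7 db/db UMIs, but 30 of the 32 lay in 1 wt cell. In the naive T cell list 11 of 17 measured genes were above 0, with a median of 0.05. This median was -0.01 without the 2 wt members richest in Isg15, and -0.15 in the members with few other-lineage UMIs. Il7r was at 810.3 and 1114.1 CPM, a ratio of 1.37 (1.10 to 1.72), and Nsg2 at 67.5 and 166 CPM, a ratio of 2.45 (1.20 to 5.67).

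**Figure D4:**
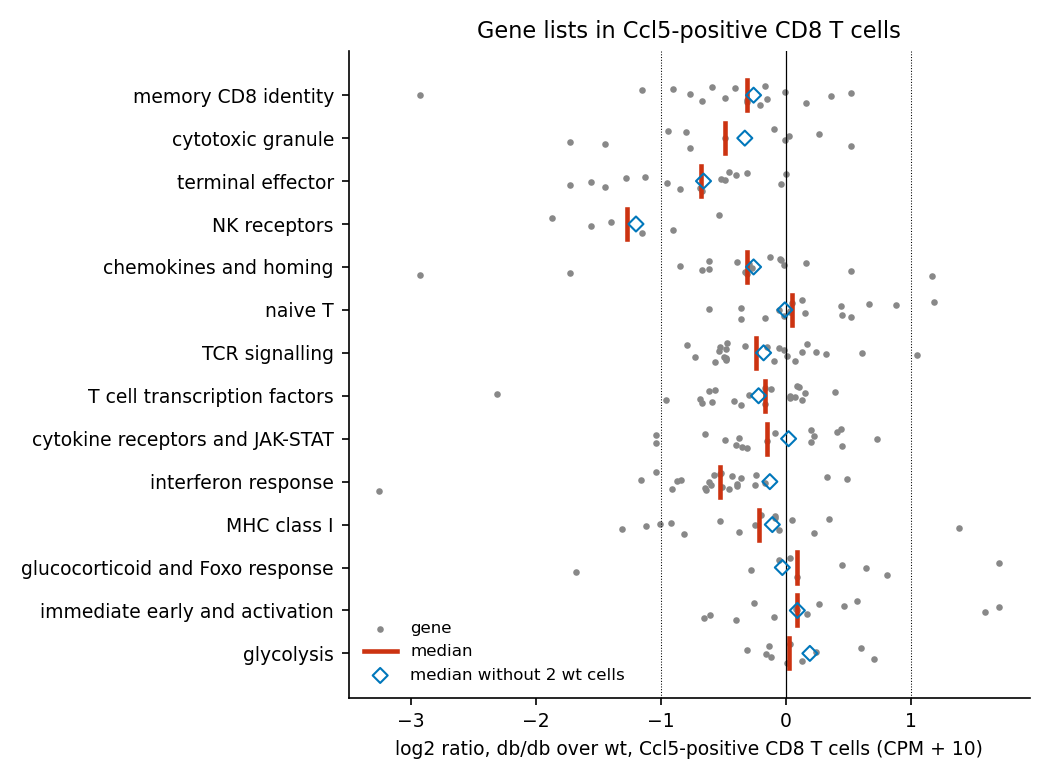
Log2 ratio of db/db over wt in Ccl5-positive CD8 T cells (x axis, CPM plus 10) for each measured gene of 14 lists (grey), with the list median (red) and the median without the 2 wt cells richest in Isg15 (open diamond). NK receptors lie lowest at -1.27 and stay at -1.20 without those cells, while the interferon list moves from -0.53 to -0.13.

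A few wt cells carried several of the lowest values. Hist1h1b, a linker histone made in S phase, had 30 wt UMIs, all in 1 cell of 9432 UMIs, and 0 in db/db. The same cell held 16 of 22 UMIs of the linker histone gene Hist1h1e, 12 of 22 of Hist1h4d (1 of several near-identical H4 copies), 8 of 9 of Top2a and all 5 of Mki67, which are proteins of dividing cells. Of 19 cell cycle genes 5 were measured, with a median of -0.78. This cell was also 1 of the 2 wt members richest in Isg15, and without both the median was -0.09 over 4 measured genes. Isg15, a ubiquitin-like protein induced by interferon, had 32 UMIs in 3 wt cells, 25 and 6 of them in 2 cells, and 5 UMIs in 5 db/db cells.

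The interferon response list was lower in db/db members, but much of that lay in 2 cells. Of 24 measured genes 22 were below 0 and 3 were 2-fold or more lower, with a median of -0.53. The summed level was 4561.9 CPM (wt) and 2994.8 CPM (db/db), which is a ratio of 0.656 (0.592 to 0.728). Without the 2 wt members that held most Isg15, chosen after their values were seen, the ratio was 0.881 (0.783 to 0.993) and the median -0.13. In Ccl5-negative cells the ratio was 0.817 (0.758 to 0.879). Over all members Ifi203, a DNA sensor family gene, was at 398 and 276 CPM, a ratio of 0.694 (0.487 to 0.998), and Trim30a at 165 and 68.2 CPM, 0.413 (0.216 to 0.788). Slfn1, a growth regulator of T cells, was at 150.1 and 214 CPM, and its ratio of 1.43 (0.855 to 2.49) spanned 1. Without each library's richest cell for the gene, Ifi203 was at 0.807 (0.541 to 1.22) and Trim30a at 0.499 (0.243 to 1.04), and both intervals span 1.

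MHC class I genes differed among themselves. Of 16 measured genes 12 were below 0, 3 were 2-fold or more lower and 1 higher, with a median of -0.22, and of -0.02 with TMM factors. H2-Q7, a non-classical heavy chain whose reads can be split with near-identical Qa genes, was at 675 and 266 CPM, a ratio of 0.394 (0.289 to 0.538), and was also lower without Ccl5, at 0.576 (0.449 to 0.733). The classical heavy chain H2-K1 was at 1838.2 and 1036.2 CPM, 0.564 (0.476 to 0.669), whereas H2-D1 was at 2603.6 and 3033.8 CPM, 1.17 (1.03 to 1.32). The directions were the same without Ccl5, at 0.761 (0.671 to 0.861) and 1.44 (1.32 to 1.57). They were also the same in B cells, with H2-K1 at 1161.2 and 724 CPM and H2-D1 at 1901.7 and 2464.8 CPM. H2-T23, which encodes Qa-1, the ligand of CD94 and NKG2 receptors, was at 300.1 and 133 CPM, 0.444 (0.280 to 0.704). H2-T22 had 4 UMIs in 3 wt cells and 29 in 23 db/db cells, 3.14 (1.10 to 12.3), against 0.821 (0.524 to 1.26) without Ccl5. Its level in members was 0.245 times (0.0651 to 0.655) the Ccl5-negative level in wt and 0.938 times (0.547 to 1.60) in db/db.

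Higher in db/db members were an early activation marker, an NF-kB inhibitor and genes of translation. Cd69, which holds T cells in tissue and appears early after stimulation, had 9 UMIs in 7 of 30 wt cells and 69 in 31 of 67 db/db cells, 67.5 and 224 CPM, a ratio of 3.32 (1.65 to 7.56). In Ccl5-negative cells its ratio was 0.947 (0.643 to 1.38). Nfkbia had 6 UMIs in 6 wt cells and 52 in 35 db/db cells, 45.0 and 169 CPM, a ratio of 3.75 (1.61 to 10.7), against 1.27 (0.868 to 1.86) without Ccl5. Without Ccl5 it was at 121 and 154 CPM. Members were thus below the Ccl5-negative level in wt, 0.373 (0.132 to 0.852), and near it in db/db, 1.10 (0.729 to 1.66). After thinning, 7.19% of wt and 18.7% of db/db members had Cd69, and 6.09% and 14.9% had Nfkbia. In the members with few other-lineage UMIs Cd69 had a ratio of 2.67 (0.911 to 10.6) on 4 and 23 UMIs. Nfkbia had one of 3.71 (0.497 to 165) there on 1 and 8 UMIs, and both intervals span 1. No other gene of the immediate early and activation list was 2-fold higher over all members, where 8 of 13 measured genes were above 0. The list median was 0.09, and -0.19 over 5 measured genes in the members with few other-lineage UMIs. Over all members Junb and Jund, AP-1 subunits, had ratios of 0.754 (0.553 to 1.04) and 0.624 (0.442 to 0.885).

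Txnip, an inhibitor of thioredoxin, was at 495 and 874 CPM, a ratio of 1.76 (1.34 to 2.35), and at 2.06 (1.72 to 2.46) in Ccl5-negative cells. It belongs to the glucocorticoid and Foxo list, in which 6 of 9 measured genes were above 0, with a median of 0.09, or -0.03 without the same 2 wt members. Sgk1, a kinase of that list, had 14 and 8 UMIs, 0.247 (0.0899 to 0.632). Tpt1, a growth-linked cytoplasmic protein, had a ratio of 1.38 (1.30 to 1.46) and the elongation factor Eef1b2 1.53 (1.33 to 1.76). Without Ccl5 they were at 1.15 (1.11 to 1.19) and 1.21 (1.11 to 1.31). Tpt1 was at 6948.1 and 9594.5 CPM in B cells, 6579.5 and 9005.7 in NK cells and 12574.8 and 12795.8 in CD4 T cells. Eef1b2 was at 1024.0 and 1341.9, 821 and 1319.9, and 1796.1 and 1951.9 CPM in these classes. Of 83 measured ribosomal protein genes 69 were above 0 and none was past 2-fold, with a summed ratio of 1.21 (1.20 to 1.22), against 0.996 (0.989 to 1.00) without Ccl5. Trnp1 had 0 wt UMIs, and 22 in 16 db/db members, at least 3.17-fold higher, and 4.99 (2.24 to 12.2) without Ccl5. Washc3, Mfhas1, Isca2 and C1qbp had 1, 1, 1 and 4 wt UMIs, so that their ratios of 9.52, 9.09, 8.66 and 3.79 carry wide intervals whose lower bounds were 1.54, 1.46, 1.38 and 1.35. Vcp, a segregase for misfolded proteins, had 26 and 17 UMIs, a ratio of 0.283 (0.144 to 0.542), and was level without Ccl5 at 0.998 (0.629 to 1.56).

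Within cells with an effector UMI, several genes that were lower over all db/db members differed by less than counting error. There Nkg7 was at 1887.1 and 1908.2 CPM, Klrk1 at 463 and 451 CPM, S100a6 at 766 and 833 CPM and Lgals1 at 837 and 1023.5 CPM. The summed terminal effector list, which holds the genes that chose this subset, had a ratio of 1.06 (0.944 to 1.18). In cells with no effector UMI it had a ratio of 0.633 (0.548 to 0.731), but 1 wt cell held 123 of its 286 wt UMIs. Nkg7 was lower in db/db there, 1037.5 and 559.5 CPM, a ratio of 0.539 (0.407 to 0.719). S100a6 and Lgals1 were lower there too, with ratios of 0.126 (0.0686 to 0.223) and 0.158 (0.0860 to 0.282), but 31 of 44 wt UMIs of S100a6 lay in 1 cell. Of the 2 wt members richest in Isg15, 1 was in this subset, the cell of 9432 UMIs with transcripts of dividing cells described above. It held these 123 and 31 UMIs, and without it the ratio of the terminal effector list was 0.974 (0.818 to 1.17), which spans 1. The ratios without it were 0.375 (0.173 to 0.831) for S100a6, 0.245 (0.124 to 0.478) for Lgals1 and 0.664 (0.485 to 0.921) for Nkg7. NK receptors were lower in both subsets, 0.726 (0.580 to 0.906) with and 0.531 (0.421 to 0.674) without an effector UMI, and so was H2-Q7, 0.407 (0.239 to 0.674) and 0.519 (0.336 to 0.813). Txnip was higher in both, 1.79 (1.08 to 3.05) and 1.68 (1.20 to 2.40). Cd69 and Nfkbia were higher in db/db cells with no effector UMI, 3.18 (1.38 to 9.01) and 6.93 (1.81 to 59.0) on 6 and 2 wt UMIs, and in cells with an effector UMI their ratios of 2.27 and 1.71 spanned 1. The interferon list was at 0.853 (0.724 to 1.00) with an effector UMI and at 0.687 (0.597 to 0.792) without, which was 0.800 (0.685 to 0.938) without that 1 cell. Over all members the summed glycolysis list had a ratio of 1.07 (0.901 to 1.26), and none of its 10 measured genes was past 2-fold. In cells with an effector UMI this list was higher in db/db, on 62 and 136 UMIs, 1103.8 and 2359.2 CPM, a ratio of 2.14 (1.57 to 2.93). With no effector UMI the ratio was 0.797 (0.651 to 0.979), and 0.925 (0.740 to 1.17) without that cell. Differences between the subsets were not tested.

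**Figure D5:**
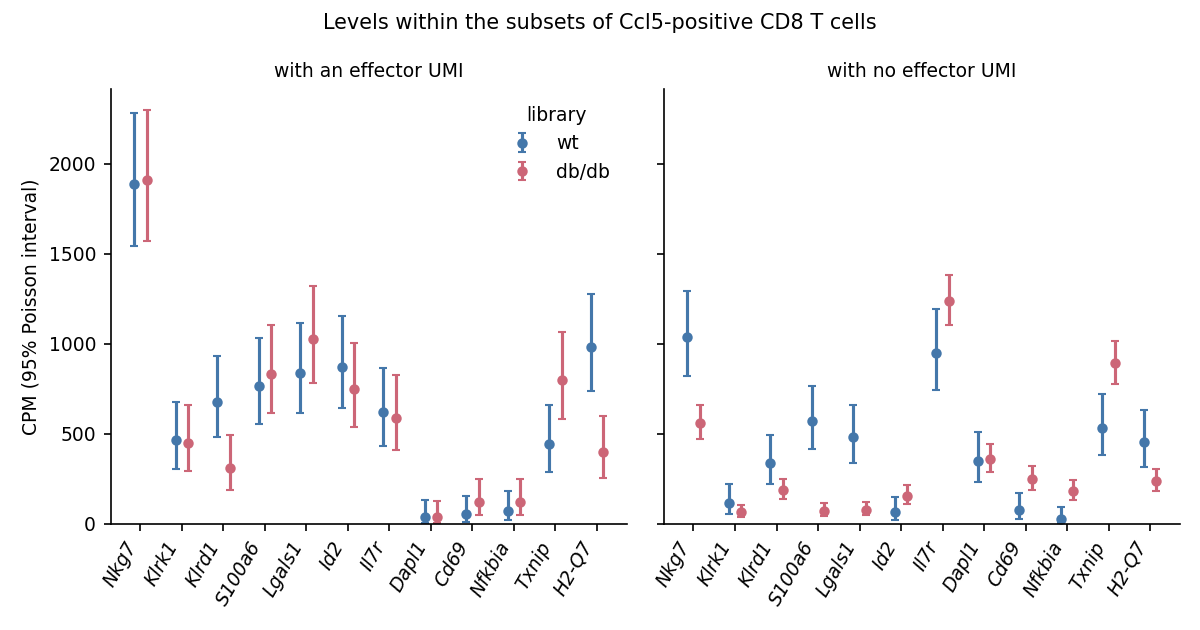
CPM of 12 genes (y axis, 95% Poisson interval) in wt (blue) and db/db (red) members with an effector UMI (left) and with no effector UMI (right). Intervals of Nkg7, S100a6 and Lgals1 overlap between libraries on the left and not on the right, whereas Klrd1 and H2-Q7 are lower and Txnip higher in db/db in both panels.

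Signalling and homing genes past 2-fold are given here beside the 3.20% higher and 4.11% lower over all measured genes. Of 17 measured cytokine receptor and JAK-STAT genes 2 were 2-fold or more lower and none higher. Their median of -0.15 turned to 1.05 over 5 measured genes in the members with few other-lineage UMIs. Il6ra was at 158 and 71.5 CPM, 0.454 (0.238 to 0.867), Jak2 at 97.5 and 42.2 CPM, 0.433 (0.185 to 1.01), and Ifngr1, an interferon gamma receptor chain, at 270.1 and 455 CPM, 1.68 (1.16 to 2.50), alike in direction to Ccl5-negative cells at 1.82 (1.36 to 2.43). Of 18 chemokine and homing genes Xcl1 and Ccr2 were 2-fold or more lower and Ccl4 higher, and without the richest cell Ccl4 was at -1.64 (log2). Itgb1 was level, 338 and 328 CPM. Of 21 transcription factors Gata3 was the only one past 2-fold, at 120.0 and 16.2 CPM, 0.135 (0.0388 to 0.386) on 16 and 5 UMIs. Of 24 T cell receptor signalling genes Cd5, a brake on receptor signals, was the only one past 2-fold, at 45.0 and 104 CPM with a ratio of 2.31 (0.952 to 6.75) that spans 1. Ptprc, the phosphatase CD45, was at 1913.3 and 1312.3 CPM, 0.686 (0.585 to 0.805).

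Checkpoint and exhaustion genes were sparse. Among 15 checkpoint genes Vsir alone had at least 20 UMIs, at 97.5 and 74.7 CPM. The summed list was at 315 and 166 CPM on 42 and 51 UMIs, a ratio of 0.526 (0.343 to 0.811), and of 0.787 (0.560 to 1.09) without Ccl5. Cd160, with 14 and 5 UMIs, had a ratio of 0.155 (0.0436 to 0.454). Those of Tox (0.385), Vsir (0.766) and Btla (1.15) had intervals that span 1. Pdcd1, the PD-1 receptor, had 1 UMI in each library, Lag3 and Tigit 0, and Havcr2 0 and 1. Reads from the 3′ end rarely reach the variable segments of the T cell receptor: beta segments had 4 UMIs (wt) and 10 UMIs (db/db), and no segment was seen in more than 2 cells of a library. Trbc1 and Trbc2, near-identical constant segments, were both seen in 10 wt and 35 db/db members, Trbc2 alone in 18 and 27, and Trbc1 alone in 2 and 4.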

How the data were processed

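Blood of wt and db/db mice was measured in 1 library each. The authors deposited raw UMI counts per gene and barcode (31053 genes, whole numbers, no barcode under 500 UMIs), made per the submitters' processing notes with Cell Ranger 3.0.2 on mm10; the annotation and cell calling settings are not given in the sources used here. Sums and intervals were computed with numpy 2.4.6, scipy 1.17.1 and pandas 2.3.3 under Python 3.11.15. Cells were gated by the rule above. Comparators were CD8-gated cells without Ccl5, CD4 T cells, NK cells (2 or more UMIs of Ncr1, Klrb1c, Klra8 or Klra4, no Cd3, Cd79 or Cd8) and B cells (2 or more Cd79 UMIs, no Cd3 or Cd8). No doublet caller was run; the gate removes T cells with Cd79 UMIs, and 3 wt and 12 db/db barcodes failed only that clause.

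UMIs were summed per class and library. CPM carry exact Poisson intervals, CPM and share ratios exact conditional binomial intervals, and shares Clopper-Pearson intervals. Log2 ratios used CPM plus 10, which understates changes of low genes. A gene was measured with 20 UMIs over both sums compared. Ratios against 0 UMIs were set against 3 counts in that sum. Thinned shares are hypergeometric expectations. The scripts were tested on simulated counts. Gene positions come from GENCODE M21 (GRCm38), where 144 of 144 IDs matched.

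Named genes were the 10 highest and 10 lowest ratios of db/db over wt, ranked by the interval bound nearest 1, with 20 UMIs in the higher library and at least 10% of the highest class level. To these came the 12 highest and 8 lowest of Ccl5-positive over Ccl5-negative cells, ranked by the weaker library, the 4 most abundant members and every 2-fold member of each list, and the 5 given markers. The rankings took no mitochondrial, ribosomal, haemoglobin or variable-segment gene and no unnamed locus. Further genes that the text names were chosen after their values were seen. The members and lists were chosen with earlier results of these data known. Alternatives changed the gates, scaling, pseudocount, UMI minimum and single cells.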

Additional observations from a re-analysis of the deposited data

Results flagged for a closer look

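The ratios below pointed in opposite directions in the 2 groups compared, each with an interval on its own side of 1. The difference itself was not tested, and 1 library per genotype was measured. Klrd1 was lower in db/db among Ccl5-positive cells, a ratio of 0.440, and higher among Ccl5-negative cells, a ratio of 1.94 (1.4 to 2.69), so that the level with Ccl5 was 3.72 times that without it in wt and 0.841 times in db/db. Cd69 was lower in Ccl5-positive than in Ccl5-negative cells in wt, a ratio of 0.463 (0.205 to 0.920), and higher in db/db, a ratio of 1.62 (1.1 to 2.43). Ikzf2, which encodes the Helios factor, was 7.46 times (3.06 to 19.3) the Ccl5-negative level in wt and 0.103 times (0.00238 to 0.727) in db/db, on 15 UMIs in 3 wt cells and 1 UMI in db/db. Fcer1g, a signalling adaptor, had a db/db over wt ratio of 0.303 (0.0979 to 0.882) with Ccl5, on 10 wt UMIs of which 7 lay in 1 cell, and of 4.21 (1.74 to 11.2) without it.

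For 2 haemoglobin genes the ratios also crossed. Hba-a1 had a db/db over wt ratio of 0.876 with Ccl5 and 1.49 without it, and Ccl5-positive over Ccl5-negative ratios of 1.54 in wt and 0.900 in db/db. Hbb-bs had ratios of 0.740 and 1.46 between genotypes, and of 1.77 in wt and 0.895 in db/db between cells with and without Ccl5. A single wt member held 731 of 1622 Hbb-bs UMIs. Without each library's richest cell the db/db over wt ratios in members were 1.26 (1.11 to 1.44) for Hba-a1 and 1.07 (0.987 to 1.15) for Hbb-bs, neither of them below 1. The ratios between cells with and without Ccl5 were not computed without these cells. Over all members Hba-a2 was at 0.915 (0.813 to 1.03) and Hbb-bt at 1.22 (1.03 to 1.44).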

How the results depend on the processing

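No paired analysis was possible because the labels give 1 library per genotype and no shared replicate numbers. With 97 members and 1 UMI worth 3.25 to 7.50 CPM, counts of genes past 2-fold depended on the settings, while the Ccl5 share ratio kept its direction in every setting run.

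Without cells holding 2 or more UMIs of other-lineage markers, which left 9 wt and 18 db/db members, the Ccl5 share ratio was 1.39 (0.594 to 3.52), the interferon ratio 0.739, 47 genes were higher and 31 lower in db/db, and 4 were higher and 3 lower with Ccl5 in both libraries. There the log2 ratios of Washc3 (-0.08), Xcl1 (0.37), S100a6 (1.08), Ccl4 (-2.79), Jak2 (0.37), Ikzf2 (1.24), Fcer1g (1.24), S100a9 (-0.74) and Pf4 (-0.74) turned direction, as did Nkg7 (0.54) and Klrk1 (1.44), which had been within 2-fold. Of the 87 higher and 112 lower genes, 2 and 7 were past 2-fold again with at least 20 UMIs in these fewer cells. Genes left with fewer UMIs could not count, whatever their ratio. With no UMI minimum, 9 of the 87 and 16 of the 112 had the opposite sign. The list medians of memory (0.61), cytotoxic (0.84), cytokine receptor and JAK-STAT (1.05), naive T (-0.15) and immediate early genes (-0.19) also turned there. The cause was not tested. TMM factors gave an interferon ratio of 0.760 and 141 higher and 59 lower genes. A pseudocount of 50 CPM gave 9 higher and 29 lower, and 15 and 3 with Ccl5. A minimum of 50 UMIs gave 10 and 17, and 12 and 3; a minimum of 5 gave 479 and 545, and 79 and 63. The mean of CPM per cell gave 26 genes lower with Ccl5.

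Of alternatives added after seeing the data, leaving out cells with 2 or more platelet UMIs gave 49 higher genes, leaving out each gene's richest cell gave 166 higher and turned Ccl4 (-1.64), and leaving out the 2 wt members richest in Isg15 gave an interferon ratio of 0.881. Of 2157 named-gene values under 13 alternatives, 1987 kept their side of the 2-fold line and 10 that had been past it turned direction.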
